A study of Mus musculus with 11 samples.

Results

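The 10 genes described here set the passage of cells from G1 into S phase: the cyclins Ccnd1, Ccnd2 and Ccne1, the kinases Cdk4 and Cdk6, the kinase inhibitors Cdkn1b, Cdkn2a and Cdkn2b, and the transcription factors E2f1 and Myc. They were chosen by name, with earlier results of these data known. Each was read from the probe set that names only that gene, and where a gene had more than 1 such probe set (Cdkn1b alone), from the brightest over all arrays. All 10 were found among 19938 genes measured in 11 arrays of mouse stomach.

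D-type cyclins are made in response to growth signals and bind Cdk4 or Cdk6. These kinases, and later cyclin E with Cdk2, phosphorylate the retinoblastoma protein and its relatives, which then release E2F factors to turn on genes of DNA replication. The INK4 proteins p16 (from Cdkn2a) and p15 (from Cdkn2b) block Cdk4 and Cdk6, while p27 (from Cdkn1b) acts mainly on cyclin E and cyclin A kinases. Cdkn2a also encodes p19Arf, which stabilizes p53. Myc drives growth and ribosome synthesis, and in normal epithelium TGF-beta acting through Smad proteins is known to lower Myc and raise Cdkn2b.

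Total RNA was measured on Affymetrix arrays, 1 array per sample, and every value below is a log2 signal, so that a difference of 1 is a 2-fold difference. Normal gastric epithelium (NGE, 4 arrays) came from Pdx1-1-Cre-negative mice. The tumour groups were labelled as gastric cancer tissues, of diffuse type. One (pChePS_GC, 4 arrays) carried Pdx-1-Cre with Cdh1F/+, Smad4F/F and Trp53F/F, and the other (pCP_GC, 3 arrays) carried the same Cre with Cdh1F/F and Trp53F/F but unmodified Smad4, as far as the labels say. Both tumour groups thus had floxed Trp53 on both alleles, and no group was treated, per the labels. The Pdx1 promoter is active in the distal stomach, duodenum and pancreas, so Cre acts in part of the stomach only. The labels give no age, sex or stomach region, and do not state whether replicates were different mice, so that the p-values cover only how much the deposited samples vary. The number of arrays limits the precision.

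The groups differed in ways that touch every comparison with NGE. By the labels NGE was epithelium, while both tumour groups were cancer tissues. Xist, the RNA of the inactive X chromosome, read 11.54 to 12.66 in NGE and 5.57 to 6.02 in all tumour arrays, and Y-linked Eif2s3y read 4.94 to 5.19 in NGE and 8.08 to 11.09 in tumours. Cdh1 had signals of 12.93 to 13.02 in NGE, of 8.73 to 11.07 in pChePS_GC and of 10.52 to 12.02 in pCP_GC. Smad4 read 11.05 to 11.16, 10.17 to 11.02 and 11.41 to 11.49 in these groups, and whether its probe set lies in the deleted exons is not known here. Markers of gastric cells were bright in NGE, where the mean of 6 parietal cell genes lay at 12.18 to 12.39 and that of 6 surface mucous genes at 13.70 to 13.77. In pChePS_GC these means were 6.95 to 7.33 and 9.06 to 11.96, and in pCP_GC 6.74 to 8.6 and 11.52 to 12.47. Means of 8 fibroblast genes lay at 7.86 to 8.03 in NGE, 10.81 to 11.78 in pChePS_GC and 10.72 to 11.92 in pCP_GC, and all 8 genes rose in both tumour groups. All 8 macrophage genes rose as well, with means of 7.45 to 7.71, 10.79 to 11.38 and 10.30 to 11.39. So did all 6 endothelium genes, with means of 7.03 to 7.16, 9.47 to 10.58 and 9.48 to 10.11, and all 6 smooth muscle genes, with means of 7.75 to 7.80, 9.23 to 12.33 and 10.82 to 11.97. Among neutrophil genes 5 of 6 rose in each tumour group, and 1 of 5 T cell genes fell. Of 5 B cell genes 0 passed by limma, and 0 had an unadjusted p under 0.05. All 6 parietal genes fell in both tumour groups, while 5 of 5 chief cell and 5 of 6 surface mucous genes fell in pChePS_GC and 4 of 5 and 2 of 6 in pCP_GC. As a level of background the 95th percentile of 1190 odorant and pheromone receptor genes was taken, namely 7.24 for NGE, 6.99 for pChePS_GC and 6.86 for pCP_GC. In NGE 4 endothelium genes (Cdh5, Emcn, Kdr and Tek), the fibroblast gene Lum, the macrophage gene Adgre1 and the smooth muscle gene Des lay at or under it. The part of these cell types, and of sex, in the changes below was not tested. By Xist and Eif2s3y all NGE arrays differ in sex from all tumour arrays. Sex and tumour thus cannot be told apart in any comparison with NGE. In such bulk samples fewer cells of a type and less RNA per cell cannot be told apart either.

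Most of the 10 genes were higher in both kinds of tumour than in normal epithelium. Against NGE, 8 of 10 rose in pChePS_GC and 8 of 10 rose in pCP_GC by limma's moderated test across all genes, where 18.7% and 20.0% of all genes rose at the same threshold (Benjamini-Hochberg adjusted p under 0.05). Genes that fell made up 23.4% and 31.8%, and genes that changed in either direction 42.1% and 51.8%. A rise of at least 2-fold was found for Ccnd1, Ccnd2, Cdk6 and Cdkn2a in both, and for E2f1 in pCP_GC as well (4 and 5 of 10 genes, against 6.98% and 8.13% of all genes). The median change of the 10 genes was 0.90 in pChePS_GC and 1.05 in pCP_GC, beside -0.10 and -0.12 over all genes. Arrays of tumour and NGE did not overlap for 7 genes in pChePS_GC and for all 10 in pCP_GC, where 40.6% and 59.6% of all genes did not overlap. All 7, and 9 of the 10, were on the higher side, as 17.7% and 24.0% of all genes were, and the exception was Cdkn2b. The comparisons share the NGE arrays and are not independent of each other. All 10 genes lay above the receptor percentile in every array.

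**Figure D1:**
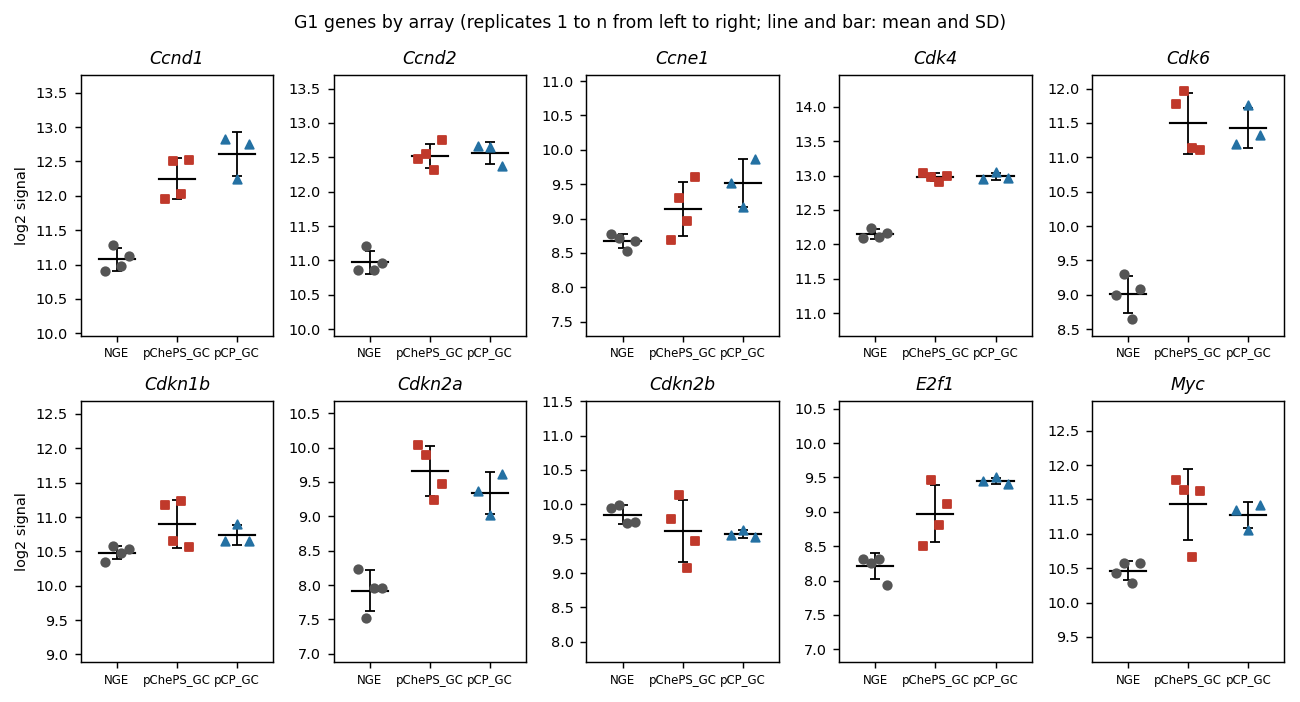
Log2 signal of each gene in every array (dots: NGE; squares: pChePS_GC; triangles: pCP_GC), with replicates from left to right and the mean and SD as line and bar; every panel spans the same range of log2 units. Ccnd1, Ccnd2, Cdk4, Cdk6 and Cdkn2a lie well above NGE in all 7 tumour arrays, while Cdkn2b lies below every NGE array in all 3 pCP_GC arrays and on both sides in pChePS_GC.

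The D cyclins rose together. Ccnd1, which encodes cyclin D1, lay at 10.91, 11.29, 10.98 and 11.13 in NGE, at 11.96, 12.51, 12.02 and 12.52 in pChePS_GC and at 12.82, 12.24 and 12.76 in pCP_GC. Every tumour array lay above every NGE array, by at least 0.68. The change was 1.18 in pChePS_GC (SE 0.17, 2.26-fold, limma adjusted p = 0.000445) and 1.53 in pCP_GC (SE 0.19, 2.89-fold, adjusted p = 0.000156). Ccnd2, encoding cyclin D2, read 10.86, 11.21, 10.86 and 10.97 in NGE, against 12.47, 12.55, 12.32 and 12.75 in pChePS_GC and 12.67, 12.65 and 12.38 in pCP_GC. Its tumour arrays formed a narrow band at least 1.11 above the highest NGE array. The change was 1.55 in pChePS_GC (SE 0.12, 2.92-fold, limma adjusted p = 6.17e-06) and 1.59 in pCP_GC (SE 0.13, 3.01-fold, adjusted p = 1.17e-05). Neither call was lost under any of the 20 alternative settings. Ccnd3, the remaining D cyclin, did not pass, with 10.02 to 10.32 in pChePS_GC and 10.22 to 10.24 in pCP_GC against 10.02 to 10.26 in NGE.

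Ccne1, which encodes cyclin E1, moved less. Signals were 8.77, 8.71, 8.53 and 8.68 in NGE, then 8.69, 9.30, 8.96 and 9.60 in pChePS_GC, and 9.52, 9.17 and 9.86 in pCP_GC. Replicate 1 of pChePS_GC lay within the NGE range, and the other tumour arrays lay above it. The change of Ccne1 passed in pCP_GC at 0.84 (SE 0.21, 1.79-fold, limma adjusted p = 0.00742), a call lost with quantile normalization (adjusted p = 0.0679, range over the alternatives 0.000274 to 0.0679). In pChePS_GC it was 0.46 (SE 0.20, 1.38-fold, limma adjusted p = 0.0775), and leaving out pChePS_GC replicate 1 brought it past the threshold (0.61, adjusted p = 0.0246), as weighting the arrays did (0.49, adjusted p = 0.0237). The range over the alternatives was 0.0237 to 0.402.

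Both kinases of the D cyclins were higher in every tumour array than in any NGE array. Cdk4 had signals of 12.09, 12.24, 12.10 and 12.17 in NGE, of 13.04, 12.98, 12.91 and 13.00 in pChePS_GC and of 12.95, 13.05 and 12.97 in pCP_GC. The spread within each group was small, with an SD of 0.07 in NGE and 0.05 in each tumour group. The change was 0.83 in pChePS_GC (SE 0.07, 1.78-fold, limma adjusted p = 1.19e-05) and 0.84 in pCP_GC (SE 0.08, 1.79-fold, adjusted p = 2.33e-05). Cdk6 lay at 9.0, 9.30, 8.65 and 9.08 in NGE, at 11.78, 11.96, 11.14 and 11.10 in pChePS_GC and at 11.20, 11.76 and 11.32 in pCP_GC. These were the largest changes of the 10 genes, 2.49 in pChePS_GC (SE 0.22, 5.60-fold, 95% interval 4.00 to 7.86, limma adjusted p = 1.63e-05) and 2.42 in pCP_GC (SE 0.24, 5.35-fold, interval 3.71 to 7.70, adjusted p = 3.90e-05). Cdk6 rose by more than 98.5% and 98.4% of all genes did. The calls of both kinases held under all 20 alternatives.

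Cdk4 is a textbook Myc target, and its promoter is shown because it holds the E-box bound by Myc and Max, CACGTG, in 4 places. Promoters here are the 250 bases before the annotated start, read 5′ to 3′ on the gene's strand, from RefSeq on GRCm38.p6. Capitals mark matches on either strand to CACGTG, which is its own reverse complement, or to a 7-letter E2F core. The core was searched as TTCCCGC and, in the same way, as TTGGCGC. The mixed forms, with TTCGCGC counted beside the similar form TTGCCGC, were searched too. Overlapping matches count separately, and here no matches overlapped.
Cdk4, chr10:127063285-127063534, plus strand: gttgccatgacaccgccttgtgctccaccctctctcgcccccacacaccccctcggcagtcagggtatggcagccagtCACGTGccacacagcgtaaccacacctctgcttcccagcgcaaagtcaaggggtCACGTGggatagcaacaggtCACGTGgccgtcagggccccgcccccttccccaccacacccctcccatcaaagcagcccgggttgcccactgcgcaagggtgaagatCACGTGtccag
Among 32851 promoter windows of this length in the table, 6.02% held at least 1 E-box and 0.0213% held 4 or more. The count of 4 was taken from the Cdk4 window itself. Its GC content was 64.4%, against a median of 52.4% over all windows, and the shares were not matched for GC. Of the 10 genes, 7 had 8 windows in the table and 2 windows held an E-box, those of Cdk4 (4 matches) and Cdk6 (1 match). Ccnd1, Ccnd2 and Myc have no window in it. A match describes the letters only, and binding was not measured.

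The inhibitors of these kinases did not move as a group. Cdkn2a read 8.24, 7.52, 7.96 and 7.96 in NGE, against 10.04, 9.89, 9.24 and 9.47 in pChePS_GC and 9.37, 9.02 and 9.62 in pCP_GC. All tumour arrays lay above all NGE arrays, by at least 0.78. The rise was 1.74 in pChePS_GC (SE 0.21, 3.34-fold, limma adjusted p = 0.000119) and 1.41 in pCP_GC (SE 0.23, 2.67-fold, adjusted p = 0.000754), and it passed under all 20 alternatives. The probe set is annotated with the transcripts of both products, so p16 and p19Arf cannot be told apart.

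Cdkn2b lies next to Cdkn2a on the same chromosome. It had signals of 9.94, 9.99, 9.73 and 9.74 in NGE, of 9.79, 10.13, 9.08 and 9.46 in pChePS_GC and of 9.56, 9.63 and 9.52 in pCP_GC. The pCP_GC arrays lay just below NGE and close together (SD 0.06), while pChePS_GC arrays lay on both sides of it (SD 0.45). The change was -0.24 in pChePS_GC (95% interval -0.64 to 0.17, limma adjusted p = 0.313) and -0.28 in pCP_GC (interval -0.72 to 0.16, adjusted p = 0.255). In pCP_GC it passed when only pCP_GC and NGE were fitted (adjusted p = 0.0395) and with quantile normalization (-0.52, adjusted p = 0.0427), in a range of 0.0395 to 0.396. The change of Cdkn2a exceeded that of Cdkn2b within arrays by 1.97 in pChePS_GC and 1.70 in pCP_GC. The exact two-sided permutation test gave p = 0.0286 for each, the smallest these group sizes allow, for a contrast chosen after the values were seen. Adding a constant to all log2 values of an array leaves that contrast unchanged. Quantile normalization can alter it, and the contrast was not computed with it.

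The promoter windows of these neighbours are shown because the genes changed unequally. The window of Cdkn2a farther upstream is that of the p19Arf transcript, and the other that of p16.
Cdkn2a (p19Arf), chr4:89294620-89294869, minus strand: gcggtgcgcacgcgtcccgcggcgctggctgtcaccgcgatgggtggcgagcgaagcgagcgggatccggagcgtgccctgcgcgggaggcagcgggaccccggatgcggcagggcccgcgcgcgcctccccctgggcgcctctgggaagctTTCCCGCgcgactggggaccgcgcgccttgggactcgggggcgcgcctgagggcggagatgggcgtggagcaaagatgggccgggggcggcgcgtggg
Cdkn2a (p16), chr4:89282193-89282442, minus strand: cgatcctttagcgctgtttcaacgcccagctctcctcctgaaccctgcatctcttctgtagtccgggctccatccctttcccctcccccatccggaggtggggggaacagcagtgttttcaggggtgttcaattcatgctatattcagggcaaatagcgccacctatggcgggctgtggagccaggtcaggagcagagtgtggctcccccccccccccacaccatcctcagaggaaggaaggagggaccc
Cdkn2b, chr4:89311033-89311282, minus strand: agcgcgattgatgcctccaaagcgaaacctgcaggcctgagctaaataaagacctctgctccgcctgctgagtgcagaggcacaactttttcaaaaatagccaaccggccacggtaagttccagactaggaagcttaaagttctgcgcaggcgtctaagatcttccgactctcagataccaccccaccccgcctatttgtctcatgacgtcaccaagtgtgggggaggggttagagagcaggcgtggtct
The p19Arf window held an E2F core (TTCCCGC), the only match to that motif in the 8 windows, where 7.89% of all windows held at least 1. Its GC content was 78.4%, against 60.0% for the p16 window, 53.6% for Cdkn2b and a median of 52.4% over all windows. No match says only that these letters are not in the window. The only window of E2f1 reads as protein-coding letters of that gene, so the bases before its first exon were not searched.

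Cdkn1b, encoding p27, lay at 10.35, 10.58, 10.47 and 10.53 in NGE, at 11.17, 10.65, 11.23 and 10.56 in pChePS_GC and at 10.65, 10.90 and 10.65 in pCP_GC. Replicates 1 and 3 of pChePS_GC stood above all other arrays, and replicates 2 and 4 lay near NGE. Its rise of 0.42 in pChePS_GC was the weakest call among the 10 genes (SE 0.15, 1.34-fold, limma adjusted p = 0.0487). That call was lost in 14 of 20 alternatives (range 0.0165 to 0.474), among them leaving out any NGE array, pChePS_GC replicate 1 (0.33, adjusted p = 0.116) or 3 (0.31, adjusted p = 0.117), or pCP_GC replicate 1 or 3. In pCP_GC the change was 0.25 (interval -0.11 to 0.62, adjusted p = 0.221). The other probe set of Cdkn1b had the same split, with 9.48 and 9.12 in pChePS_GC replicates 1 and 3 and 7.62 and 7.04 in replicates 2 and 4, where NGE read 7.81 to 8.58. Its mean change was 0.12 in pChePS_GC, and with the mean of both probe sets the call was lost (adjusted p = 0.474).

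E2f1, which turns on replication genes, read 8.32, 8.26, 8.32 and 7.93 in NGE, against 8.5, 9.47, 8.81 and 9.12 in pChePS_GC and 9.45, 9.5 and 9.41 in pCP_GC. The tumour arrays did not overlap with NGE, and the pCP_GC arrays were nearly equal (SD 0.05), against an SD of 0.41 in pChePS_GC. E2f1 rose by 0.77 in pChePS_GC (SE 0.18, 1.70-fold, limma adjusted p = 0.00711) and by 1.25 in pCP_GC (SE 0.19, 2.38-fold, adjusted p = 0.000666).

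Myc had signals of 10.43, 10.58, 10.28 and 10.57 in NGE, of 11.79, 11.64, 10.67 and 11.62 in pChePS_GC and of 11.35, 11.06 and 11.42 in pCP_GC. Replicate 3 of pChePS_GC lay only 0.09 above the highest NGE array, and the other tumour arrays lay well above it. Myc rose by 0.97 in pChePS_GC (SE 0.21, 1.95-fold, limma adjusted p = 0.00533), and by 1.22 without replicate 3. In pCP_GC it rose by 0.81 (SE 0.23, 1.76-fold, adjusted p = 0.0135). The pCP_GC call was lost with each array centred on its median (0.60, adjusted p = 0.0522, range over the alternatives 0.000497 to 0.0522). For each gene whose arrays do not overlap with NGE, the exact two-sided permutation test gave p = 0.0286, the smallest that 4 against 4 or 4 against 3 arrays allow.

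**Figure D2:**
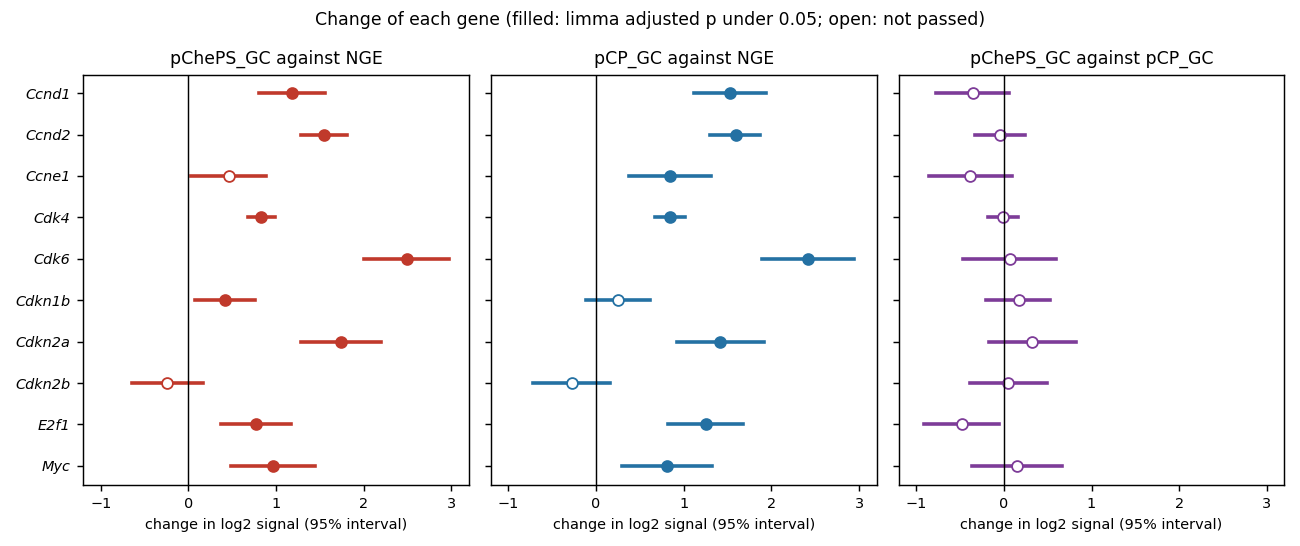
Change in log2 signal of each gene with its 95% interval from limma, for pChePS_GC against NGE, pCP_GC against NGE, and pChePS_GC against pCP_GC; filled points passed at an adjusted p under 0.05. Cdk6 changed by 2.49 and 2.42 against NGE, Cdkn2b lies left of 0 in both, and in the right panel all points are open.

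Between the tumour groups, which differ in Smad4 and in the number of floxed Cdh1 alleles, limma called 0 of the 10 genes. The share called over all genes was 0.366%. Arrays overlapped for all 10, where 13.9% of all genes did not overlap. At an unadjusted p under 0.05 there was 1 of the 10, E2f1, beside 3294 of all 19938 genes. E2f1 was lower in pChePS_GC by -0.48 (95% interval -0.91 to -0.05, adjusted p = 0.260), and the exact two-sided permutation test gave p = 0.114. Ccnd1 (-0.35, interval -0.77 to 0.06) and Ccne1 (-0.38, interval -0.85 to 0.09) also lay lower in pChePS_GC without passing. For the genes that TGF-beta is known to act on, the difference was 0.05 for Cdkn2b (interval -0.39 to 0.49) and 0.15 for Myc (interval -0.36 to 0.66). Cdk4 had the narrowest interval, -0.18 to 0.16 around -0.01. The other differences were -0.04 for Ccnd2 (-0.33 to 0.24), 0.07 for Cdk6 (-0.46 to 0.59), 0.17 for Cdkn1b (-0.20 to 0.53) and 0.32 for Cdkn2a (-0.17 to 0.82).

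Within pChePS_GC the genes split the arrays in more than 1 way. Replicates 1 and 3 held the lower values of Ccnd1 (11.96 and 12.02), Ccne1 (8.69 and 8.96) and E2f1 (8.5 and 8.81) and the higher values of Cdkn1b. Replicates 1 and 2 held the higher values of Cdk6 (11.78 and 11.96), Cdkn2a (10.04 and 9.89) and Cdkn2b (9.79 and 10.13). Replicate 3 held the lowest Myc, Cdkn2a and Cdkn2b. The mean of 15 E2F target genes was 9.90, 10.69, 9.80 and 10.07 in replicates 1 to 4, so that replicates 1 and 3 were the lower ones there too. Among marker lists, replicate 1 had the lowest smooth muscle mean (9.23, against 10.56 to 12.33) and the lowest surface mucous mean (9.06, against 10.14 to 11.96). In replicate 2 the mean of 5 B cell genes was 8.94, against 6.81 to 7.61 in the others. With 4 arrays these orders are a description, and their link to cell types was not tested.

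**Figure D3:**
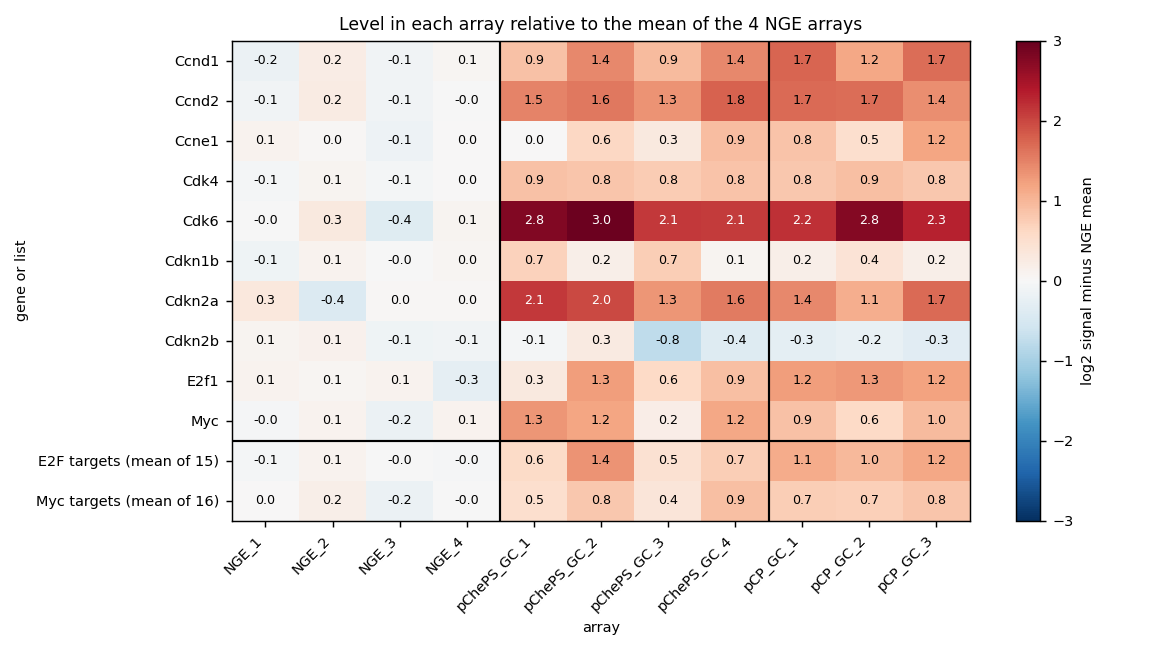
Log2 signal in each array minus the mean of the 4 NGE arrays, for the 10 genes and for the mean of 15 E2F and 16 Myc target genes; red is higher and blue lower. Cdk6 is the darkest row in all tumour arrays, and pChePS_GC replicate 3 combines a Myc level near NGE (10.67) with the lowest Cdkn2b (9.08).

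Most genes of a chosen list of E2F targets rose in both tumour groups. Of 15 measured E2F targets 12 rose in pChePS_GC, with a median change of 0.87, and 15 rose in pCP_GC, with a median of 1.06. Ccna2, which encodes cyclin A2, rose by 1.23 (2.34-fold) and 1.94 (3.84-fold). The replicative helicase genes Mcm7 and Mcm2 rose by 1.05 and 1.04 in pChePS_GC, and by 1.2 and 1.05 in pCP_GC. Rrm2, a subunit of ribonucleotide reductase, rose by 0.86 in pChePS_GC and 1.65 in pCP_GC, and Mcm4 by 1.04 and 1.52. Across the alternatives 10 to 14 genes passed in pChePS_GC and 11 to 15 in pCP_GC. This list and those below were chosen with earlier results of these data known, and their counts are given beside the shares of all genes above, with no test of the list.

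The E2F family and its partners changed unevenly. Of 12 pocket protein, E2F and DP genes, 3 rose and 1 fell in pChePS_GC (median 0.20), and 7 rose and 1 fell in pCP_GC (median 0.47). E2f3, an activator E2F, rose by 0.81 and 1.46 (limma adjusted p = 0.000388 and 1.67e-05), and Rbl1, the pocket protein p107, by 0.85 and 1.37. E2f8, a repressor E2F, rose by 1.35 in pCP_GC. Tfdp2, a DNA-binding partner of E2Fs, fell by 0.61 in pChePS_GC and fell by 0.44 in pCP_GC, where the call was lost without NGE replicate 2 (adjusted p = 0.0547) or 3 (0.0537) or pCP_GC replicate 3 (0.0878). Rb1 itself did not pass, with 9.91 to 10.02 in pChePS_GC and 10.02 to 10.18 in pCP_GC against 9.91 to 10.01 in NGE.

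Among other CDK inhibitors, Cdkn2c, which encodes the INK4 protein p18, lay at 8.93, 9.15, 8.58 and 8.80 in NGE, at 9.42, 9.31, 9.02 and 10.27 in pChePS_GC and at 10.21, 10.15 and 9.96 in pCP_GC. The pCP_GC arrays lay far above NGE, while replicate 3 of pChePS_GC lay within its range. Cdkn2c rose by 1.24 in pCP_GC (2.37-fold, limma adjusted p = 0.00246). Its rise of 0.64 in pChePS_GC (adjusted p = 0.0452) was lost in 12 of 20 alternatives, and without pChePS_GC replicate 4 it was 0.39 (adjusted p = 0.0592, range 0.0133 to 0.178). Without replicate 1 or 2 of pChePS_GC, NGE replicate 1, 3 or 4, or any pCP_GC array that call was lost too. Cdkn1c, encoding p57, fell by 0.42 in pCP_GC (limma adjusted p = 0.0218), a call lost without NGE replicate 3 (adjusted p = 0.0595) or pCP_GC replicate 1 (0.0841) or 3 (0.0674). In pChePS_GC Cdkn1c was at -0.29 (adjusted p = 0.0829). Cdkn2d, encoding p19 of the INK4 family, did not pass in either (0.17 and 0.12). Cdkn1a was not analysed here.

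Among the genes around this pathway, those that differed between tumour groups were Ccne2, Cdk2 and Ccnc. Of 8 other G1 cyclin, kinase and related genes, 1 rose and 3 fell in pChePS_GC against NGE (median -0.14), and 2 rose in pCP_GC (median 0.24). Between tumour groups 3 of 8 were lower in pChePS_GC, where 0.251% of all genes were. Ccne2, encoding cyclin E2, read 7.89, 8.03, 7.70 and 7.77 in NGE, against 7.59, 7.36, 7.04 and 7.41 in pChePS_GC and 8.22, 8.12 and 8.15 in pCP_GC. The 3 groups of arrays were separate and in the order pChePS_GC, NGE, pCP_GC, at levels near the receptor percentile of 6.99 in pChePS_GC. Ccne2 fell by 0.50 in pChePS_GC against NGE (limma adjusted p = 0.00795) and differed by -0.81 between tumour groups (adjusted p = 0.0317).

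Cdk2, the partner kinase of cyclin E, had signals of 9.40, 9.66, 9.44 and 9.61 in NGE, of 9.46, 9.30, 9.47 and 9.30 in pChePS_GC and of 9.87 to 10.07 in pCP_GC. It was above NGE in pCP_GC by 0.45 (limma adjusted p = 0.00356, lost with median centring at 0.0699 and quantile normalization at 0.0622) and lower in pChePS_GC than in pCP_GC by -0.60 (adjusted p = 0.0356). Ccnc, encoding cyclin C, fell by 0.57 in pChePS_GC against NGE (adjusted p = 0.00408) and differed by -0.73 between tumour groups (adjusted p = 0.0466). These 3 differences between tumour groups kept their sign, but the calls of Ccne2, Cdk2 and Ccnc were lost in 9 of 19, 15 of 20 and 15 of 20 alternatives (Ccne2 is among the dimmest 50% of genes, which 1 alternative leaves out). Leaving out NGE replicate 1 or 4 or pCP_GC replicate 1 or 3 ended all 3 calls, and every other array left out ended that of Cdk2, of Ccnc or of both, or for NGE replicate 3 those of Ccne2 and Cdk2. With only the tumour arrays fitted each had an adjusted p of 0.214, the highest of ranges that start at 0.0107, 0.0267 and 0.0297. Mnat1, a subunit of the CDK-activating kinase, rose by 0.50 in pChePS_GC and 0.64 in pCP_GC, and the former was lost with median centring (adjusted p = 0.0661).

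Of 7 measured genes in or around the ubiquitin ligases that degrade p27, cyclin E and Myc, 2 rose in each tumour group (medians 0.04 and 0.20). Cks1b, the cofactor through which Skp2 recognises p27, lay at 8.67, 8.90, 8.63 and 8.83 in NGE, at 10.62, 10.24, 10.02 and 10.11 in pChePS_GC and at 10.90, 10.46 and 11.08 in pCP_GC. All tumour arrays stood more than 1 unit above NGE. Cks1b rose by 1.49 in pChePS_GC (2.81-fold, limma adjusted p = 5.14e-05) and 2.05 in pCP_GC (4.15-fold, adjusted p = 1.31e-05), and both calls held under all 20 alternatives. Skp2 rose by 0.57 in pCP_GC, and Cul1, the scaffold of these ligases, by 0.45 in pChePS_GC, which was lost with median centring (adjusted p = 0.0704).

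Most genes of a chosen list of Myc targets rose as well. Of 16 genes of ribosome and nucleotide synthesis, 11 rose in pChePS_GC (median 0.80) and 13 in pCP_GC (median 0.90), with 11 to 12 and 11 to 13 passing across the alternatives. Gnl3, the nucleolar GTPase nucleostemin, rose by 1.34 and 1.5, and Nop58, a core protein of small nucleolar RNPs, by 1.14 and 1.09. In pChePS_GC and pCP_GC Nop56 rose by 0.94 and 0.92, and Polr1b, an RNA polymerase I subunit, by 0.88 and 1.07.

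The partners and rivals of Myc did not share a direction. Of 12 genes, 3 rose and 2 fell in pChePS_GC (median 0.07), and 4 rose and 2 fell in pCP_GC (median 0.01). Mxd1, which competes with Myc for Max and represses its targets, had signals of 12.15, 11.80, 11.88 and 12.17 in NGE, of 10.61, 10.75, 10.67 and 10.78 in pChePS_GC, and of 10.67, 9.79 and 10.82 in pCP_GC. All tumour arrays lay below all NGE arrays. In pChePS_GC Mxd1 fell by 1.29 (limma adjusted p = 0.000538), and in pCP_GC it fell by 1.57 (adjusted p = 0.000278), under all 20 alternatives. Mycn, the neural member of the family, read 8.09, 7.98, 8.12 and 7.83 in NGE, against 10.03, 9.53, 8.23 and 7.87 in pChePS_GC and 9.69, 10.05 and 9.44 in pCP_GC. Replicates 3 and 4 of pChePS_GC lay at or near NGE, and the other tumour arrays far above it. Mycn rose by 1.72 in pCP_GC (3.30-fold, limma adjusted p = 0.00749) and did not pass in pChePS_GC (0.91). Mlx fell by 0.56 in pChePS_GC. Mlxip rose by 0.37 in pChePS_GC and 0.42 in pCP_GC, and Mxd4 by 0.36 and 0.45. The calls of Mlxip were lost with median centring (adjusted p = 0.112 and 0.126) and quantile normalization (0.0558 and 0.0575). That of Mxd4 in pCP_GC was lost with median centring (0.140), with quantile normalization (0.0635) and without pCP_GC replicate 2 (0.0635). In pChePS_GC the call of Mxd4 was lost in 7 of 20 alternatives.

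Of 11 Polycomb and other genes known to repress the Cdkn2a locus, 4 rose and 1 fell in pChePS_GC (median 0.15), and 5 rose and 1 fell in pCP_GC (median 0.40). The shares that passed, 45.5% and 54.5%, were near those of all genes, 42.1% and 51.8%. Ezh2, the methyltransferase of Polycomb complex PRC2, rose by 1.04 (2.05-fold, limma adjusted p = 4.30e-05) and 1.15 (2.22-fold, adjusted p = 4.28e-05), and its tumour arrays (11.02 to 11.39) lay above NGE (9.90 to 10.26). Cbx7, a chromodomain protein of PRC1, rose by 0.92 in pChePS_GC and did not pass in pCP_GC (0.32). Rnf2, the ubiquitin ligase of PRC1, rose by 0.72 in pChePS_GC and 0.70 in pCP_GC. Id1, a BMP target that inhibits helix-loop-helix factors, fell by 1.93 in pChePS_GC and fell by 1.24 in pCP_GC. Ezh2 and Cdkn2a were both higher in all 7 tumour arrays than in any NGE array. Of all genes 17.7% in pChePS_GC and 24.0% in pCP_GC lay above NGE without overlap. A link between Ezh2 and Cdkn2a was not tested.

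**Figure D4:**
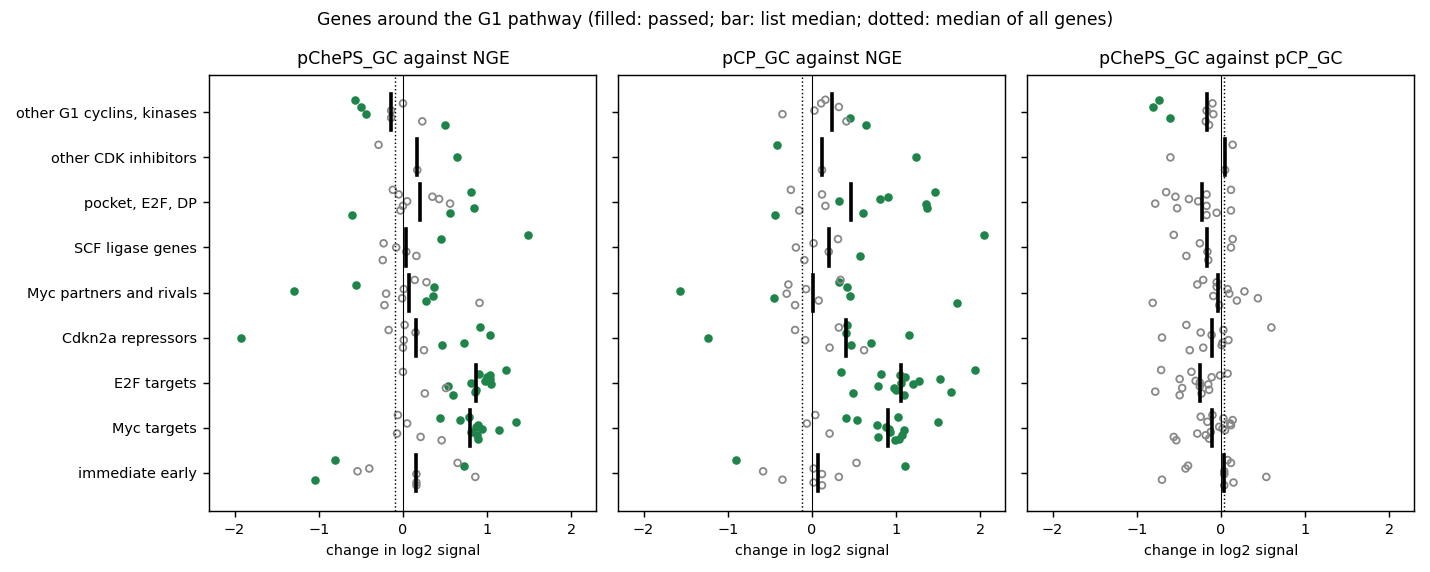
Change in log2 signal of each measured gene of 9 lists around the G1 pathway, in the 3 comparisons; filled points passed at an adjusted p under 0.05, short bars are list medians and the dotted line is the median of all genes. E2F and Myc targets lie to the right in both comparisons with NGE (medians 0.87 and 0.80, then 1.06 and 0.90), and between tumour groups the 3 filled points are Ccne2, Ccnc and Cdk2.

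For the 3 genes with the widest range of group means, the nearest profiles were sought as the smallest root mean square difference over 11 arrays after centring each gene on its own mean. For Cdk6 these were Lacc1 (0.20 log2 units), Porcn (0.25) and Nudt4 (0.28), which changed by 2.21, 2.17 and 2.27 in pChePS_GC and 2.34, 2.25 and 1.91 in pCP_GC. For Cdkn2a they were Cyba (0.19), Ppl (0.25) and Pus7l (0.26), and for Ccnd2 they were Ccdc34 (0.15), Zfp618 (0.17) and Rcl1 (0.18). All of these follow the step between NGE and tumours, which the samples of each group share.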

How the data were processed

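The authors deposited processed log2 signals of 35556 probe sets on 11 arrays; that they are log2 values was read from their range, 2.88 to 14.56. The submitters' processing notes name Affymetrix Expression Console; its version, algorithm and genome build were not given in the sources used here. Array medians lay between 7.63 and 7.81. Of these probe sets 21789 named 1 gene, 1621 several and 12146 none. Each of 19938 genes took its brightest probe set over 11 arrays, and dim genes were kept.

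With limma 3.58.1 (R 4.3.3), a model of the 3 group means over every array was fitted by lmFit and moderated by eBayes, and the 3 comparisons were contrasts of it. P-values are two-sided and adjusted over 19938 genes by the Benjamini-Hochberg method, and passed under 0.05. The test was checked on simulated arrays. The 20 alternatives changed the groups fitted, variance prior, normalization, filter on dim genes, probe-set summary, array weights and replicate block, and left out each array in turn. Named genes are the 10 genes, up to 3 genes per list and comparison with the largest change among those that passed (all measured CDK inhibitors), and the nearest profiles; Ccnd3 and Rb1, and the arrays of Ccne2, Cdk2, Cdkn2c, Cks1b, Mxd1 and Mycn, were added after their values were seen. Members and lists were chosen with earlier results of these data known. No coordinates of probe sets are given, since no source names their build.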

Additional observations from a re-analysis of the deposited data

Results flagged for a closer look

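Values that stood apart within a group were found for 2 of the 20 sets of 4 arrays examined, where chance gives about 1 in 20. Myc in pChePS_GC had its lowest array, replicate 3, at 10.67 against 11.62 to 11.79 in the others. E2f1 in NGE had its lowest array, replicate 4, at 7.93 against 8.26 to 8.32.

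Among the 10 genes and the G1 pathway lists, changes from NGE differed between tumour groups for 3 genes by limma's test of the difference. All 3 were of the lists and 0 of the 10 genes passed, where 0.366% of all genes did. The change in pChePS_GC minus that in pCP_GC was -0.81 for Ccne2 (adjusted p = 0.0317), -0.60 for Cdk2 (adjusted p = 0.0356) and -0.73 for Ccnc (adjusted p = 0.0466). These calls were lost in 9 of 19, 15 of 20 and 15 of 20 alternatives, and with only the tumour arrays fitted each adjusted p was 0.214. In each gene all 4 pChePS_GC arrays lay below all 3 pCP_GC arrays, and 13.9% of all genes had tumour groups that did not overlap, in either direction.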

How the results depend on the processing

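Of 200 values for the 10 genes in each comparison (10 genes under 20 alternatives), 184 kept direction and side of the threshold in pChePS_GC against NGE, 196 in pCP_GC against NGE and 188 between tumour groups. The other 12 between tumour groups changed sign, all of them differences that did not pass: with median centring Cdk4 was at 0.03 and with array weights at 0.01, and with an array left out Ccnd2 ran from -0.13 to 0.03, Cdk4 from -0.03 to 0.02, Cdk6 from -0.09 to 0.23 and Cdkn2b from -0.12 to 0.22. Without the dimmest 50% of genes, which tests fewer genes, 4881 rather than 8386 genes passed in pChePS_GC against NGE, 4611 rather than 10337 in pCP_GC against NGE, and 31 rather than 73 between tumour groups. The last count was 188 with array weights, and 0 with only the tumour arrays fitted (2530 genes at an unadjusted p under 0.05) and 0 with the replicate block (3263 at an unadjusted p under 0.05). It ran from 26 to 154 with an array left out, at 31, 33, 26 and 28 without NGE replicates 1 to 4 and at 30, 154 and 31 without pCP_GC replicates 1 to 3. The cause was not tested. Deviations of same-numbered arrays had correlations of -0.155 to 0.156, and differently numbered arrays were not compared. Whether the numbers stand for more than sample names, such as a shared batch, was not tested. Among the 10 genes the replicate block lost the call of Cdkn1b in pChePS_GC (adjusted p = 0.079).

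Centring each array on its median moved the median change of all genes by -0.17 in pChePS_GC and -0.21 in pCP_GC. With it the split of calls was 2695 higher and 9101 lower in pChePS_GC and 2686 higher and 9716 lower in pCP_GC, against 3728 and 4658, and 3994 and 6343. The 10 genes lay above the receptor percentile in every array, but Cdkn2a in NGE came near it, at 7.52 in replicate 2 against 7.24. How far background affected such low signals was not tested.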

Other observations

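Immediate early genes, which respond within minutes to growth signals and to tissue handling and among which Myc is often counted, moved unevenly. Of 10 genes, 1 rose and 2 fell in pChePS_GC, and 1 rose and 1 fell in pCP_GC. Egr1, a zinc finger factor, rose by 0.72 in pChePS_GC and 1.11 in pCP_GC, and Jun, an AP-1 subunit, fell by 1.05 in pChePS_GC. Atf3, a stress-induced factor, fell by 0.81 in pChePS_GC and fell by 0.90 in pCP_GC, with adjusted p of 0.0433 and 0.0334 in limma. The first call was lost without any of the 4 NGE arrays, pChePS_GC replicate 1, 2 or 4, or pCP_GC replicate 1 (adjusted p up to 0.0992). The latter was lost without NGE replicate 1, 3 or 4 or pCP_GC replicate 1 or 2 (adjusted p up to 0.133). The list medians were 0.16 and 0.07, beside -0.10 and -0.12 over all genes.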
